A study of Mus musculus with 36 samples.

Results

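RNA from naive mouse embryonic stem (ES) cells depleted of DDX6 was compared between the libraries labelled polysome and the libraries labelled total. The part described here holds 6 of the 36 samples of the series, 3 libraries of each fraction. Of the 18379 genes with a read in any of these 6 libraries, 15638 had at least 10 reads summed over them and were tested. The cells were naive ES cells grown in 2i medium that expressed GFP-tagged LSM14A and carried a FKBP12 degron tag on both copies of Ddx6, from a line derived from single cells. DDX6 protein was removed with 1 µM of the degrader dTAG-13 for 6 hours, followed by cycloheximide, which halts elongating ribosomes. The labels state the fraction and the DDX6 degron (DDX6deg_poly and DDX6deg_total), while the dose, time and medium come from the study's methods. Ribosome-containing fractions of a sucrose gradient were pooled to give ribosome-bound RNA, and a share of each lysate was kept as total RNA. Control cells of the same line, without the degrader, gave 3 libraries of each fraction. The comparison asks which transcripts were more or less abundant in the ribosome-bound pool once DDX6 had been removed.

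DDX6 is a DEAD-box RNA helicase that represses translation and promotes decapping, and it is needed to form P-bodies, cytoplasmic condensates of RNA and protein. Polysomes are mRNAs that carry several ribosomes at once. In general a longer reading frame has room for more ribosomes. RNAs that are not translated, such as those retained in the nucleus, are not expected on polysomes. A ratio of polysome-labelled to total RNA, termed ribosome occupancy, is relative: it compares a gene with the bulk of the RNA in both fractions, and says nothing about total ribosome number.

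Libraries of the DDX6-depleted cells held 16673454 to 29362187 reads assigned to genes. Replicates of a fraction agreed closely, with Spearman correlations of 0.98 across 9116 genes for every pair. ES cell identity was evident from the 12 ES cell markers, which summed to 6919 to 7428 TMM-scaled CPM, the reads of a gene scaled to a common library size, in each library. Fibroblast and primitive endoderm markers summed to 2.92 to 5.05 CPM. Trophoblast markers, mainly Tfap2c, and neural and mesoderm markers, mainly Tubb3, summed to 128 to 139 and 54.7 to 60.2 CPM in the libraries labelled polysome, against 165 to 175 and 91.6 to 96.1 CPM in those labelled total, and the part of such cells in any result was not tested. By the methods each lysate gave both fractions, so these sums compare RNA of the same cells and are no measure of cell number.

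The targeted transcript did not test the labels, since the degron acts on the protein. Ddx6 mRNA stood at 104, 106 and 111 CPM in the libraries labelled polysome and at 203, 198 and 211 CPM in those labelled total. RNAs with little or no coding capacity were then described in both fractions. They cannot decide whether the labels are right. By the methods all ribosome-containing fractions were pooled, and total RNA came from the same lysate, cleared by centrifugation. Of 277 long noncoding RNAs with a mean of at least 1 CPM, 121 were higher (43.7%) and 5 lower (1.81%) in the libraries labelled polysome, against 29.3% and 33.8% of protein-coding genes at that level and 24% and 26.8% of all genes tested, and their median log2 fold change was 0.36. The 5 were Dancr and, chosen after their values were seen, Gm10336, 5730408K05Rik, 2900052L18Rik and 9130221H12Rik. The same median was 0.33 in control cells. Among the few RNAs with the opposite direction, chosen after their values were seen, were Rmrp and Rpph1, the RNA components of the RNase MRP and RNase P enzymes, with log2 fold changes of −2.47 and −2.14 at levels of 0.118 to 3.06 CPM. The fractions are therefore called "labelled polysome" and "labelled total", every direction given here follows the labels, and what accounts for these values was not tested.

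The coding sequences below show the kind of reading frame on which the results turn, taken from the GENCODE annotation of GRCm38. Atp5mpl, which encodes a small subunit associated with mitochondrial ATP synthase, is shown whole because it has one of the shortest reading frames of the genes named here (174 bases before the stop codon, gene at chr12:111961375-111966977, minus strand), with the start and stop codons in capitals. Selenot, which encodes a selenoprotein of the endoplasmic reticulum, is shown around the in-frame TGA at codon 49 (gene at chr3:58576636-58593133, plus strand), the capitals marking the codon that is read as selenocysteine, because it had the highest log2 fold change of the protein-coding genes with at least 10 CPM whose fractions did not overlap.
Atp5mpl: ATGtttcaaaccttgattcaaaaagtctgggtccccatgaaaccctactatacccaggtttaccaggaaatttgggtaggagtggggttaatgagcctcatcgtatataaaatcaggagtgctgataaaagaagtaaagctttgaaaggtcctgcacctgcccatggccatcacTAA
Selenot: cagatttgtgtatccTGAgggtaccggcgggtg

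Differences between the fractions were common but mostly small. In the libraries labelled polysome, 3759 genes were higher (24%) and 4193 were lower (26.8%), so that 50.9% of genes passed an adjusted p of 0.05 in edgeR's quasi-likelihood test. Of the 7952 genes called, 7727 had libraries that did not overlap between the fractions. Being called largely brings this about, and no count over all genes tested is given, so it is no separate evidence. The test against a 1.5-fold difference was far less even. It called 1486 genes lower (9.5%) and 36 higher (0.23%), 9.73% of genes in all, and DESeq2 called 1250 lower and 8 higher by the same limit. Among genes called by the first test, the point estimate was at least 2-fold lower for 1001 and at least 2-fold higher for 92. These 92 outnumber the 36 that passed the 1.5-fold test, so many of them did not pass even that limit. Scaling by library totals alone, in place of TMM, moved the median of all genes from 0.02 to 0.21 on the log2 scale and turned 47.3% of calls being higher into 67.2%, so small differences are relative to this choice while those beyond 1.5-fold stayed mostly lower, at 1010 against 198 genes.

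**Figure D1:**
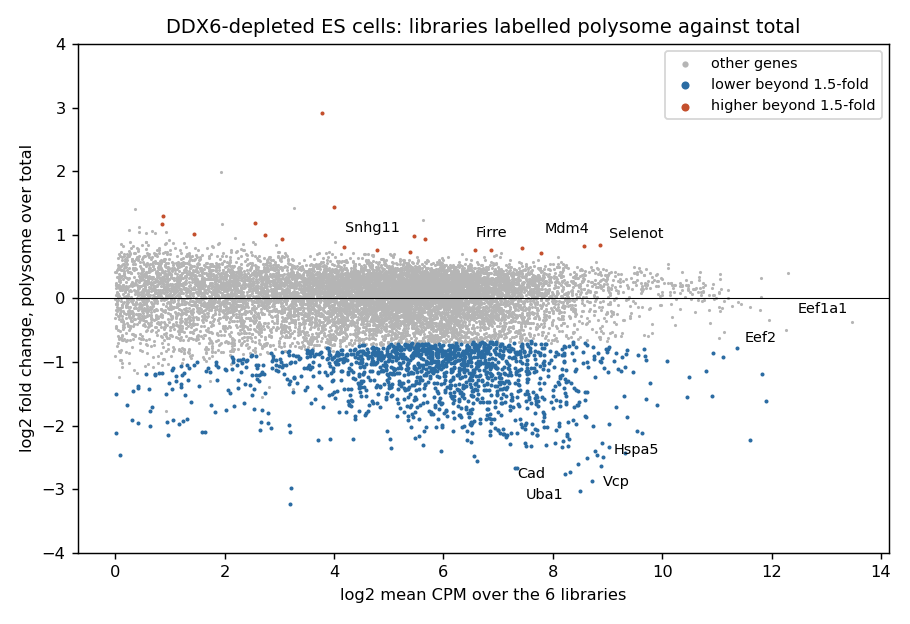
Log2 fold change of libraries labelled polysome over those labelled total (vertical axis) against the log2 mean CPM over the 6 libraries of DDX6-depleted cells (horizontal axis), 1 point per gene with at least 1 CPM. Coloured points passed the test against 1.5-fold, and they lie almost entirely below 0. Of 12351 genes, 4 lie beyond the vertical axis.

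Among genes with a mean of at least 10 CPM the lowest values were those of Uba1, Vcp and Cad. Uba1, which encodes the main ubiquitin-activating enzyme (chrX:20658326-20683179, plus strand), was at 83.0, 86.2 and 79.1 CPM in the libraries labelled polysome and at 686, 673 and 681 CPM in those labelled total. All 3 libraries of the first fraction lay far below all 3 of the second. The log2 fold change was −3.04 ± 0.046 (SE), 8.20-fold lower, with an edgeR adjusted p of 5.62e-22. Vcp, the gene of a segregase that unfolds ubiquitylated proteins (chr4:42979963-43000507, minus strand), was at 110, 102 and 108 CPM against 784, 769 and 779 CPM, a log2 fold change of −2.87 ± 0.046. Cad encodes the enzyme that opens pyrimidine synthesis (chr5:31054780-31078479, plus strand). It was at 77.3, 82.2 and 80.2 CPM against 563, 535 and 529 CPM, a log2 fold change of −2.76 ± 0.047. These 3 genes were known from earlier results of these data.

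The 15 lowest genes, chosen among called genes with a mean of at least 10 CPM and fractions that did not overlap, ran from −3.04 to −2.40 on the log2 scale, and the next was also −2.40. All 15 encode proteins, with coding lengths of 1965 to 7449 bases and a median of 3273, against a median of 1383 over all genes at this level that have a coding length. They included secreted and membrane proteins, among them the laminin gene Lamc1 (−2.73), the collagen gene Col18a1 (−2.67), the mannose-6-phosphate receptor gene Igf2r (−2.40) and Copb2 (−2.56), which encodes a coat protein of Golgi vesicles. Others act in the nucleus, such as the spliceosomal helicase gene Snrnp200 (−2.66), the DNA damage sensor gene Parp1 (−2.51) and Ddb1 (−2.43), an adaptor of a ubiquitin ligase. Also among them were Aars (−2.60), the alanyl-tRNA synthetase gene, Hspa5 (−2.50), the gene of the chaperone BiP, Acly (−2.46), which makes cytosolic acetyl-CoA, and Wdr6 (−2.48).

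**Figure D2:**
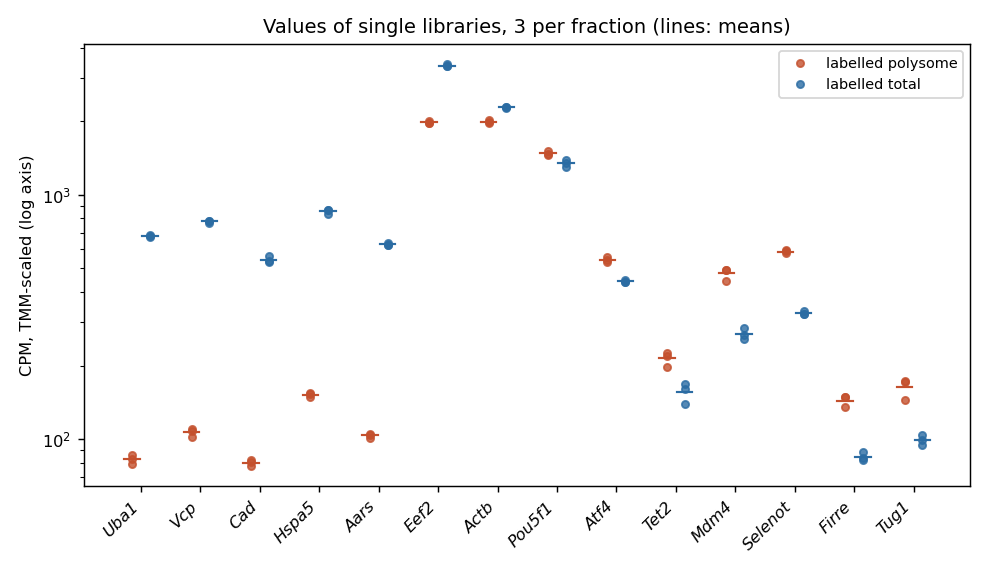
TMM-scaled CPM of single libraries (log axis) for 14 genes of DDX6-depleted cells, 3 libraries labelled polysome and 3 labelled total per gene, with lines at the means. Uba1, Vcp, Cad, Hspa5 and Aars are far lower in the libraries labelled polysome, whereas Selenot, Mdm4, Firre and Tug1 are higher, by less than 2-fold.

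At the other end of the scale, differences were smaller. The 15 highest genes by the same rule ran from 0.71 to 1.24, the next also being 0.71, and 11 had a coding length in the annotation. Selenot was at 586, 575 and 595 CPM in the libraries labelled polysome and 335, 325 and 326 CPM in those labelled total, which is 0.83 ± 0.041 on the log2 scale (edgeR adjusted p = 4.02e-14). Mdm4 encodes an inhibitor of p53 (chr1:132959484-133030561, minus strand). It stood at 442, 493 and 494 CPM against 267, 256 and 284 CPM, a log2 fold change of 0.82 ± 0.050. The 3 libraries labelled polysome were close together for Selenot and spread more for Mdm4. Slc25a36 (0.78), which encodes a mitochondrial pyrimidine nucleotide carrier, Vma21 (0.74), an assembly factor of the proton pump of lysosomes, Scai (0.81) and Prune2 (0.76) also passed the 1.5-fold test, but Mtx3, Dnal1 and Ids (0.71 to 0.72) did not. In DESeq2 Vma21, Scai and Prune2 did not pass it either (adjusted p = 0.39 to 0.41). The long noncoding RNA Firre (chrX:50555744-50635321, minus strand) was at 135, 148 and 148 CPM against 82.4, 83.5 and 88.5 CPM, a log2 fold change of 0.76 ± 0.049.

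Several of the highest values belong to genes that share sequence with close copies, so the assignment of reads to them is uncertain. Atp6v0c-ps2, a pseudogene, was at 61.7, 66.5 and 78.4 CPM against 0, 26.3 and 55.5 CPM. Gm2381, Gm13363 and Tmem181b-ps are likewise predicted or pseudogene loci, at log2 fold changes of 0.72 to 0.93. Amd1 showed the same difficulty most plainly, at 39.0, 0 and 31.9 CPM in the libraries labelled polysome and 0, 0 and 7.88 CPM in those labelled total. Its intronless copy Amd2, chosen after its values were seen, was at 298, 333 and 299 CPM against 249, 239 and 237 CPM, a log2 fold change of 0.36. The ribosomal protein gene Rps27 was at 8.67, 26.6 and 32.5 CPM against 10.9, 9.87 and 4.58 CPM, with overlapping fractions.

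Coding length was the transcript feature most closely related to the ratio of the fractions. Among 8899 protein-coding genes with a mean of at least 10 CPM and an annotated reading frame (98.8% of 9010), the Spearman correlation between coding length and log2 fold change was −0.66. These points are genes of the same 6 libraries, not independent replicates. For the whole transcript it was −0.34, for total RNA level −0.22, for GC content of the transcript −0.23 and of the coding sequence −0.12. The 5′ and 3′ untranslated lengths gave −0.045 and 0.072. In control cells coding length gave −0.74.

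The relation was graded. With reading frames of up to 300 bases the median log2 fold change was 0.39 over 197 genes, and 97.0% of these genes were higher in the libraries labelled polysome. From 300 to 600 bases the median was 0.31 over 1016 genes, and from 600 to 1200 bases it was 0.11 over 2534 genes. Medians then fell below 0. They were −0.10 for 1200 to 1800 bases, −0.28 for 1800 to 2400 bases and −0.47 for 2400 to 3600 bases, over 2050, 1153 and 1113 genes. From 3600 to 6000 bases the median was −0.61 over 599 genes. Beyond 6000 bases it was −0.74 over 237 genes, of which 85.2% were lower and 3.80% higher, and 50.6% were lower beyond 1.5-fold. The spread among genes also widened, from an SD of 0.14 in the shortest class to 0.65 for 2400 to 3600 bases, so long reading frames alone did not fix a value. Tet2 and Prune2, with 5736 and 9252 coding bases, lay above 0.

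**Figure D3:**
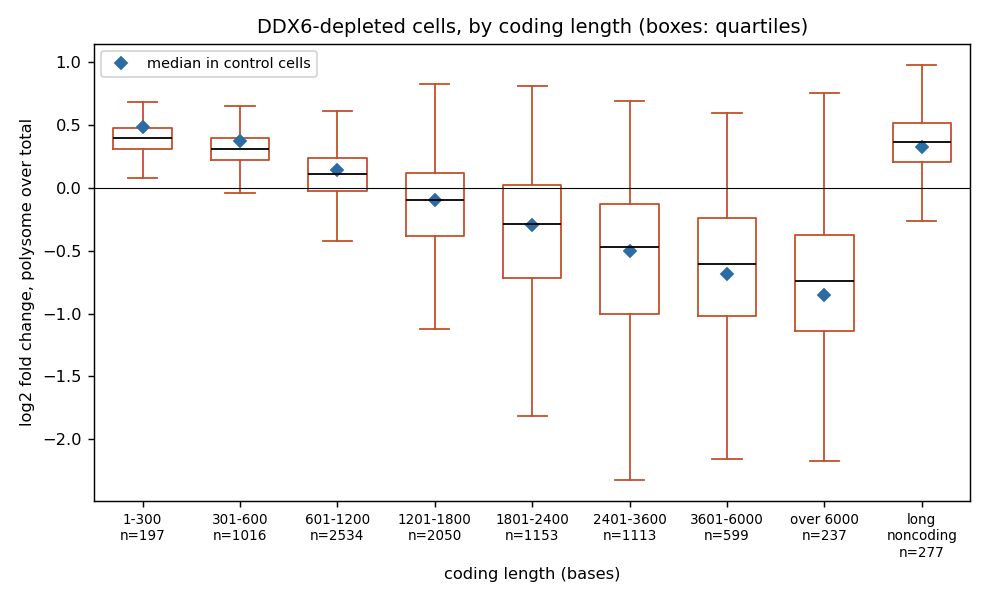
Log2 fold change of libraries labelled polysome over those labelled total (vertical axis) for protein-coding genes by coding length in bases, and for 277 long noncoding RNAs (boxes, quartiles with the median as a line; whiskers, up to 1.5 times the box height; outlying genes not drawn). Medians fall from 0.39 for the shortest to −0.74 for the longest reading frames in DDX6-depleted cells, and diamonds give the same median in control cells.

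Genes of protein folding and tRNA charging were among the lowest groups. Of 28 chaperones 26 were lower (26.8% of all genes) and 23 were lower beyond 1.5-fold (9.5% of all genes), with a median of −1.10 against 0.02 for all genes tested. Hspa5 was at 154, 148 and 153 CPM against 869, 832 and 867 CPM, and Hsp90b1, which encodes the GRP94 chaperone of the same compartment, had a log2 fold change of −2.27 ± 0.050. Hspe1, which encodes the small mitochondrial co-chaperonin and has 306 coding bases, was the chaperone called higher (0.38), while Dnajb1 was at −0.03 with an edgeR adjusted p of 0.65 and gave 0.15 with library totals. Of 22 aminoacyl-tRNA synthetase genes and their partners 21 were lower (95.5%, against 26.8% of all genes), with a median of −1.02. Beyond 1.5-fold 15 were lower (68.2%, against 9.5%). Aars and Lars, the synthetases for alanine and leucine, stood at −2.60 and −2.12, and the scaffold gene Aimp2 was at −0.11 with an edgeR adjusted p of 0.083.

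Glycolysis genes and extracellular matrix genes followed the same direction. Of 16 glycolysis genes 15 were lower (93.8%, against 26.8% of all genes) and 8 beyond 1.5-fold, with a median of −0.74, and the hexokinase genes Hk1 and Hk2 stood lowest at −2.02 and −1.75. Pgam1 was at −0.10 with an edgeR adjusted p of 0.053. Of 41 collagen, laminin and fibronectin genes 25 were lower (61.0%, against 26.8% of all genes) and 0 were higher (against 24%). Their median was −1.10, although 21 of the 41 had less than 1 CPM. The basement membrane collagen genes Col4a1 and Col4a2, which lie side by side, were at 2.01 to 2.59 and 1.46 to 2.25 CPM in the libraries labelled polysome and at 15.8 to 18.2 and 16.9 to 18.3 CPM in those labelled total. Sparc, with a shorter reading frame of 906 bases, was at −0.39.

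Nuclear regulators with long reading frames were lower in most cases. Of 47 chromatin modifiers 39 were lower (83.0%, against 26.8% of all genes), 21 beyond 1.5-fold, with a median of −0.58. Chd4, a remodelling ATPase, was at 95.4, 98.2 and 105 CPM against 507, 483 and 516 CPM, and Dnmt1, the maintenance DNA methyltransferase, had a log2 fold change of −2.15 ± 0.049. Only Tet2 (0.46) and Kmt2e (0.23) of this list were higher. Of 45 splicing factors 26 were lower (57.8%, against 26.8% of all genes) and 11 higher (24.4%, near the 24% of all genes). Their median was −0.28. Hnrnpu (−1.87) and Hnrnpm (−1.95) stood lowest and Sf3b6 (0.44), a small component of the U2 particle, highest. Of 100 centrosome, kinetochore and motor genes 55 were lower (55%, against 26.8% of all genes) and 16 higher (16%, against 24%). Their median was −0.31, with the mitotic kinesin gene Kif20a at −1.73 and the mitotic checkpoint gene Bub1b at −1.56. Cep126 and Cenpw, a centromere protein gene of 258 coding bases, were at 0.66 and 0.49. Proteasome subunits stayed near the shares of all genes, with 15 of 45 lower (33.3%) and 10 higher (22.2%), and had a median of −0.03 that became 0.15 with library totals. The 3 lower beyond 1.5-fold were the large regulatory subunit genes Psmd1 (−2.07) and Psmd2 (−1.46) and, chosen after its values were seen, Psme4 (−1.11). Of 41 cyclin and cyclin-dependent kinase genes 13 were higher (31.7%, against 24% of all genes) and 7 lower (17.1%, against 26.8%), with a median of 0.10.

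Small mitochondrial proteins lay on the other side. Of 92 respiratory chain subunits 72 were higher (78.3%, against 24% of all genes) and 9 lower (9.78%, against 26.8%). Their median was 0.31 and their median coding length 390 bases. Atp5mpl, whose whole reading frame is given above, was at 138, 136 and 137 CPM against 93.2, 98.2 and 87.0 CPM, a log2 fold change of 0.57 ± 0.048. Cox7b, a subunit of cytochrome oxidase, gave 0.55. The 3 subunits lower beyond 1.5-fold were Ndufs1 (−1.94), Sdha (−1.59) and Atp5a1 (−0.99, chosen after its values were seen), with 2181, 1992 and 1659 coding bases. Of 78 mitochondrial ribosomal proteins 53 were higher (67.9%, against 24% of all genes) and 4 lower (5.13%, against 26.8%), with a median of 0.23. The 4 were Mrps27, Mrps31, Mrps5 and Mrpl44, at −0.17 to −0.25, the last of them chosen with Mrps5 after their values were seen.

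Cytosolic ribosomal protein mRNAs, whose translation is controlled through a pyrimidine-rich 5′ end, were modestly higher. Of 88 genes 61 were higher (69.3%, against 24% of all genes) and 4 lower (4.55%, against 26.8%), with a median of 0.18. For comparison, all coding genes of 300 to 600 coding bases had a median of 0.31, and the ribosomal protein genes had a median coding length of 453. Rps27a was at 1796, 1671 and 1775 CPM against 1524, 1653 and 1484 CPM. Rpl41, with 75 coding bases, was at 1340, 1438 and 1654 CPM against 1406, 1410 and 1174 CPM, overlapping between fractions, with an edgeR adjusted p of 0.062. The 4 lower genes were Rps2 (−0.18) and, chosen after their values were seen, Rpl3 (−0.12), Rpl4 (−0.13) and Rps4l (−0.13). All 4 were no longer lower when library totals replaced TMM.

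Translation factors included genes at both ends. Of 50 initiation factors 15 were higher (30.0%, against 24% of all genes) and 20 lower (40.0%, against 26.8%), 11 of the latter beyond 1.5-fold, with a median of −0.03 that became 0.15 with library totals. Eif3c and Eif5b, which encode a large subunit of eIF3 and the factor that joins the ribosomal subunits, stood at −2.21 and −2.13. Eif1, a small factor in start codon choice, was at 939, 941 and 967 CPM against 702, 698 and 670 CPM, a log2 fold change of 0.46. The elongation factor genes Eef2 and Eef1a1 were lower, at −0.77 and −0.37. Eef2 was at 1966, 1963 and 2008 CPM against 3357, 3428 and 3363 CPM. Of 14 elongation and release factors 7 were lower (50%, against 26.8% of all genes) and 4 higher (28.6%, near the 24% of all genes). The higher ones were Eef1e1, Naca and, chosen after their values were seen, Btf3 and Etf1.

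Several mRNAs known for translational control were not far from the bulk. Atf4, whose upstream reading frames limit its translation in unstressed cells, was at 530, 541 and 556 CPM against 438, 448 and 439 CPM, a log2 fold change of 0.30 ± 0.041. Of 14 listed stress response genes 9 were higher (64.3%, against 24% of all genes) and 4 lower (28.6%, against 26.8%), with a median of 0.17. Upstream reading frames were not annotated for this list. The lower genes were Eprs, Asns and, chosen after their values were seen, Sesn2 and Trib3. Eprs and Asns, at −2.08 and −0.97, were lower beyond 1.5-fold. Among polyamine genes Odc1, the first enzyme of the pathway, was at 0.16, and Oaz1, an antizyme gene read through a ribosomal frameshift, was at 0.23. Azin1 was at −0.09 with an edgeR adjusted p of 0.098. The ferritin gene Fth1, which carries an iron-responsive element, was at 450, 480 and 480 CPM against 559, 546 and 531 CPM, a log2 fold change of −0.21. Of 10 iron genes 6 were lower (60%, against 26.8% of all genes) and 0 higher (against 24%). Among them Aco1 (−1.82) and, chosen after its values were seen, the transferrin receptor gene Tfrc (−0.83) passed the 1.5-fold test.

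Selenoprotein mRNAs, in which a TGA codon is read as selenocysteine, were mostly higher. Of 18 genes 12 were higher (66.7%, against 24% of all genes) and 3 lower (16.7%, against 26.8%). Their median was 0.28 and their median coding length 597 bases. Selenof followed Selenot at 501, 530 and 520 CPM against 370, 395 and 361 CPM, a log2 fold change of 0.46 ± 0.044. The 3 lower genes were the thioredoxin reductases Txnrd3 (−0.71), Txnrd2 (−0.38) and Txnrd1 (−0.13, chosen after its values were seen and above 0 with library totals). Among lipid genes, 14 of 22 cholesterol synthesis genes were lower (63.6%, against 26.8% of all genes) and 4 higher (18.2%, against 24%). Their median was −0.27. Hmgcs1, which encodes an early enzyme of the pathway, was at −1.10, and Insig1, a sterol sensor, at 0.42. The other higher genes were Idi1 (0.28) and, chosen after their values were seen, Mvk and Hsd17b7 (both 0.15).

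**Figure D4:**
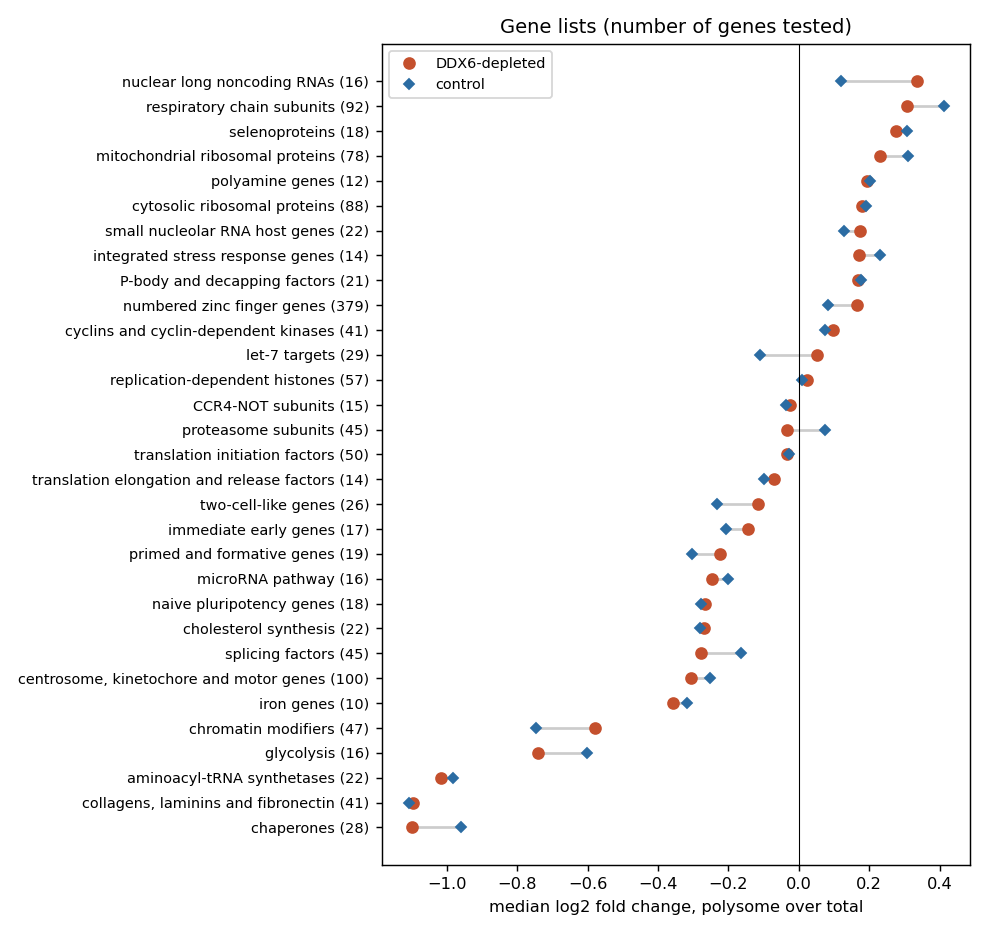
Median log2 fold change of libraries labelled polysome over those labelled total (horizontal axis) for the gene lists other than cell type markers with at least 10 genes tested, their number in brackets, in DDX6-depleted cells (circles) and control cells (diamonds). Chaperones lie at −1.10 and respiratory chain subunits at 0.31 in DDX6-depleted cells.

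The machinery of mRNA repression spanned both directions. Of 21 P-body and decapping factor genes 13 were higher (61.9%, against 24% of all genes) and 5 lower (23.8%, against 26.8%), with a median of 0.17. The lower genes were Ddx6 and Edc4, a scaffold of the decapping complex, at −0.93 and −1.81, and, chosen after their values were seen, Edc3 (−0.67), Xrn1 (−0.51) and Eif4enif1 (−0.24). Lsm14a, the P-body protein tagged in this line, was at 235, 230 and 236 CPM against 217, 208 and 207 CPM, a log2 fold change of 0.15, so the fractions did not overlap although the difference was small. Counts of Lsm14a may include the tagged transgene. Lsm5 and Pnrc2 were at 0.51 and 0.53.

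Genes of the CCR4-NOT deadenylase and its partners differed widely. The list also holds Btg1, Btg2, Tob1 and Tob2, which encode partners of the deadenylase and not subunits. The scaffold gene Cnot1 was at 172, 187 and 188 CPM against 482, 411 and 460 CPM, a log2 fold change of −1.31, while the catalytic subunit genes Cnot7 and Cnot6 were at 0.60 and 0.55. Of 15 genes 7 were lower (46.7%, against 26.8% of all genes) and 5 higher (33.3%, against 24%). The other higher genes were Btg2 (0.30) and, chosen after their values were seen, Btg1 (0.44) and Cnot9 (0.30). Of 16 genes of the microRNA pathway 8 were lower (50%, against 26.8% of all genes) and 4 higher (25%, near the 24% of all genes). Their median was −0.25. The exporter gene Xpo5 was at −1.63 and Ago2, the slicing Argonaute, at −0.32. Higher values were called for Lin28b (0.51), Ago3 (0.50), Lin28a (0.15) and, chosen after its values were seen, Ago1 (0.13). Of 29 targets of let-7 microRNAs 12 were higher (41.4%, against 24% of all genes) and 11 lower (37.9%, against 26.8%). Nras was at 0.51 and Igf2bp3 at −0.98. Myc stood near 1 CPM in all 6 libraries, at 0.23 ± 0.30.

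Pluripotency genes showed small differences for the most part. Of 12 ES cell markers 5 were higher (41.7%, against 24% of all genes) and 6 lower (50%, against 26.8%). Their median was −0.10, which became 0.09 with library totals, and 0 passed the 1.5-fold test. Pou5f1 (Oct4) was at 1509, 1451 and 1471 CPM against 1352, 1392 and 1299 CPM, a log2 fold change of 0.13. Sox2 was at 614, 602 and 613 CPM against 750, 764 and 759 CPM, a log2 fold change of −0.31. Nanog and Zfp42 were at −0.17 and −0.10, and both turned above 0 with library totals, at 0.009 and 0.079. Of 18 naive pluripotency genes 13 were lower (72.2%, against 26.8% of all genes) and 5 higher (27.8%, near the 24% of all genes). Their median was −0.27. Stat3, the transducer of LIF signals, was the naive gene lower beyond 1.5-fold, at 26.5, 26.6 and 25.2 CPM against 81.5, 82.2 and 78.3 CPM. The higher ones were Tet2, Tcl1 (0.37), Fgf4 (0.21) and, chosen after their values were seen, Dppa3 (0.28) and Klf4 (0.13). Tet2, which encodes a 5-methylcytosine oxidase, was at 197, 219 and 226 CPM against 161, 140 and 167 CPM, a log2 fold change of 0.46.

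Of 19 primed and formative genes 9 were lower (47.4%, against 26.8% of all genes) and 2 higher (10.5%, against 24%), with a median of −0.23. Lin28b and Tead2 were the higher ones. The de novo DNA methyltransferase genes Dnmt3b and Dnmt3a were at −1.52 and −0.88. Of 26 two-cell-like genes 8 were lower (30.8%, against 26.8% of all genes) and 4 higher (15.4%, against 24%), with a median of −0.12 that became 0.07 with library totals. The higher ones were Gm5662 (0.44), Eif1a (0.30), Dppa2 (0.21) and Tcstv1 (0.42, chosen after its values were seen). Dppa2, an activator of the two-cell programme, was at 116, 120 and 119 CPM against 111, 99.4 and 97.9 CPM. Several of these families have near-identical members, and their counts are uncertain. The DNA polymerase gene Polk was at 0.07 ± 0.072, with an edgeR adjusted p of 0.44. Of 379 numbered zinc finger genes, which encode mostly DNA-binding repressors, 149 were higher (39.3%, against 24% of all genes) and 48 lower (12.7%, against 26.8%). Their median was 0.17 despite a median coding length of 1705.5 bases. Zfp329 was the second highest of those with at least 5 CPM at 0.70.

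Among long noncoding RNAs listed as nuclear, 7 of 16 tested were higher (43.8%, against 24% of all genes) and 1 was lower (6.25%, against 26.8%). Their median was 0.34, and 6 of the 16 had less than 1 CPM. Tug1 was at 145, 173 and 170 CPM against 99.1, 94.9 and 104 CPM, a log2 fold change of 0.71 ± 0.058. Malat1 was at 203, 208 and 236 CPM against 155, 166 and 207 CPM, so 1 library labelled total lay within the range of those labelled polysome, and the log2 fold change was 0.29. Neat1 gave 0.17 with overlapping fractions. The lower one, chosen after its values were seen, was H19 (−0.96, edgeR adjusted p = 0.045). Its level was low, at 0.286 to 0.563 CPM in the libraries labelled polysome against 0.655 to 1.16 CPM. Of 22 small nucleolar RNA host genes 9 were higher (40.9%, against 24% of all genes) and 1 lower (4.55%, against 26.8%). Their median was 0.17. The lower one was Dancr (−0.27). Snhg11 was at 49.6, 62.7 and 59.0 CPM against 26.1, 29.4 and 30.9 CPM and Gas5 at 236, 249 and 270 CPM against 209, 217 and 207 CPM. Replication-dependent histone genes, whose mRNAs lack a poly(A) tail, could scarcely be judged, since 36 of 57 had less than 1 CPM. Only 5 of the 57 were called, against 50.9% of all genes. Of these, H2ac10 (0.67), H2bc4 (0.40) and, chosen after its values were seen, H2ac8 (0.71) were higher, and H2ac7 (−0.89) and Hist1h2ao (−0.25) were lower, and their sequences are similar enough to leave the counts uncertain.

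The control cells gave nearly the same order of genes. Their own fit called 43.4% of 15228 genes, and 6013 genes were called in both conditions, 6011 of them in the same direction. The remaining 2, chosen after their values were seen, were Gm8764, a predicted gene, and Slc22a4, which lay under 0.32 CPM in every library. Across 9119 genes with a mean of at least 10 CPM the log2 fold changes of both conditions had a Spearman correlation of 0.95 and a Pearson correlation of 0.97, and genes are not independent replicates. The libraries of both conditions are separate. The difference in occupancy, DDX6-depleted minus control, had an SD of 0.13 across these genes, and the median SE of a single difference was 0.095.

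In the test of the difference itself, 0 of 16345 genes (0%) passed in edgeR, 844 had an unadjusted p under 0.05 (5.16%), and DESeq2 called 4. These were Hspa8 (adjusted p = 0.000202), Vcp (adjusted p = 0.0301) and, chosen after their values were seen, the predicted genes Gm14434 and Gm7978. Hspa8 also passed in edgeR with no filter (adjusted p = 0.0152). With the replicate number as a block edgeR called 6 genes, which were Hspa8 (adjusted p = 0.0270) and the predicted genes Gm4303, Gm14434, Gm21304, Gm21293 and Gm8764, chosen after their values were seen. Leaving out replicate 3 of the control total libraries raised the edgeR count to 52. The smallest adjusted p was 0.256, for Hspa8, chosen after its values were seen, the gene of the constitutive HSC70 chaperone. Its polysome-labelled libraries stood at 2318, 2200 and 2251 CPM in DDX6-depleted and 2604, 2661 and 2822 CPM in control cells, and its total-labelled libraries at 5272, 4975 and 5165 CPM and 4757, 4843 and 4367 CPM. The difference was −0.40 ± 0.071. For Uba1, Vcp and Cad the differences were −0.27 ± 0.067, −0.30 ± 0.068 and −0.07 ± 0.071, and for Tet2 and Mdm4 they were 0.24 ± 0.11 and 0.24 ± 0.10. The edgeR adjusted p of these 5 differences was 0.70 to 0.92.

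Genes were also classed by an independent readout, the RNA of P-bodies sorted from naive ES cells with DDX6, in 2 P-body and 2 cytoplasm libraries of the same series. There 22.6% of 15630 genes were higher in P-bodies and 15.4% were lower. In DDX6-depleted cells the 2715 coding genes higher in naive P-bodies had a median log2 fold change of 0.05 between the fractions, and 40.2% of them were higher and 35.6% lower in the libraries labelled polysome. The 1648 coding genes lower in naive P-bodies had a median of −0.08, with 26.9% higher and 45.8% lower. The genes higher in P-bodies had longer reading frames, with a median of 1599 against 1326 bases.

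Within classes of coding length the medians of these groups lay 0.10 apart for reading frames of up to 300 bases and 0.45 apart beyond 6000 bases, against 0.13 over all lengths. For 600 to 1200 coding bases the medians were 0.22 over 660 genes higher and 0.04 over 438 genes lower in P-bodies. For 2400 to 3600 bases they were −0.30 over 407 and −0.72 over 204 genes, and beyond 6000 bases −0.52 over 84 and −0.98 over 74 genes. The order was the same in all 8 classes. Control cells gave medians of −0.40 and −0.73 for 2400 to 3600 bases, and the same order. The difference in occupancy from control had a median of 0.05 in genes higher in P-bodies and −0.04 in those lower in P-bodies, among coding genes with at least 10 CPM. Over all genes at this level, coding or not, the difference was above 0 for 67.5% of 2791 genes higher in P-bodies. The share was 30.9% of 1683 genes lower in P-bodies, against 45.6% of 9119 genes in all.

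**Figure D5:**
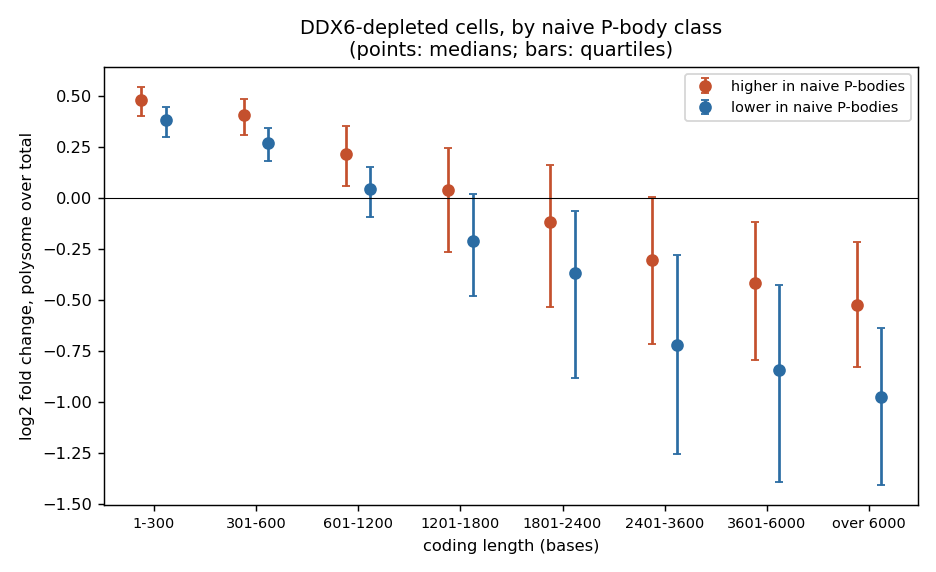
Median log2 fold change of libraries labelled polysome over those labelled total in DDX6-depleted cells (vertical axis; bars, quartiles over genes) by coding length in bases, for genes higher or lower in P-bodies of naive ES cells. Genes higher in P-bodies lie above those lower in P-bodies in each of the 8 length classes.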

How the data were processed

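Polysome-labelled and total-labelled RNA of DDX6-depleted and control naive ES cells (3 libraries each), and naive P-body and cytoplasm RNA (2 each), were analysed. For the first, the deposited values are expected counts, which the authors obtained from salmon (version 1.10.2) run through nf-core/rnaseq (version 3.9) on mm10 with refGene genes. For the P-body table the deposited values are estimated counts from featureCounts on refGene exons. Directional libraries were made, and the strand setting of counting was not given in the sources used here, so overlapping antisense genes cannot be told apart. Between 5.21% and 6.19% of values in the 6 libraries were not whole, and counts were rounded.

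Genes with at least 10 reads summed over a fit were tested with edgeR (version 4.0.16, R version 4.3.3), TMM scaling and the two-sided quasi-likelihood test, called at a Benjamini-Hochberg adjusted p under 0.05, and with glmTreat against 1.5-fold. The difference from control was the interaction over 12 libraries. SE were derived from the F statistic. CPM use TMM-scaled library sizes. Samples were grouped by title, and replicates are separate cultures by the methods. Coding lengths (stop codon excluded) come from GENCODE M21 for GRCm38, from the APPRIS principal transcript where marked, and gene types from RefSeq (99.8% of genes matched). Genes were fixed by name, were the 15 highest or lowest (called, at least 10 CPM, fractions not overlapping), or were the 2 highest and 2 lowest of each list with at least 5 CPM. Others, mainly members making up a count of 5 or fewer, are said to be chosen after their values were seen. Members, lists and rules were chosen with earlier results of these data known. Alternatives were DESeq2 (version 1.42.0), its size factors within edgeR, library totals, filterByExpr, no filter, protein-coding genes, a replicate block, all 12 libraries and leaving out each library. The script was tested on simulated data. The authors' tables of their own DESeq2 comparisons and the Ago2 knockout counts were not used. Intervals of counts would cover counting error only. Some genes are not reported here.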

Additional observations from a re-analysis of the deposited data

How the results depend on the processing

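The 7952 calls between the fractions stayed within 1.5 times this number under every alternative run, from 7151 to 7612 with 1 library left out, and the 1522 calls beyond 1.5-fold from 1434 to 1508. Leaving out 1 library gave 3224 to 3547 higher and 3927 to 4065 lower genes, and beyond 1.5-fold 27 to 41 higher and 1402 to 1478 lower. With library totals the number of higher genes moved from 3759 to 6133, and of those higher beyond 1.5-fold from 36 to 198. DESeq2 called 8 genes higher beyond 1.5-fold. The medians of 8 of 38 lists changed sign with library totals, 2 with filterByExpr and 0 to 2 with 1 library left out. The difference from control, 0 calls in edgeR, gave 4 in DESeq2 and 16 with no filter. Leaving out single libraries gave 0 to 52, and 52 came from dropping control total replicate 3. The smaller gene set of the protein-coding alternative holds no member of 3 lists of noncoding RNAs, so it gave no median for them.

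Replicate numbers were shared by the fractions. Same-numbered libraries had deviations from the group means that correlated at −0.0033, 0.11 and 0.16 across genes, so the numbers were not read as pairs. The methods state that each lysate gave both fractions, but not that equal numbers mark 1 lysate. With the replicate block 8067 genes were called between the fractions and 1548 beyond 1.5-fold, 6 in the difference from control and 5739 in the P-body comparison.

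Changes of direction were counted only for named genes called in the main fit or in the alternative. With library totals the log2 fold changes of 10 such genes turned from below to above 0. They became 0.0074 for Rps2, 0.0094 for Nanog, 0.010 for Mrpl44, 0.050 for Txnrd1 and 0.053 for Rpl4 and Rps4l. Trib3 reached 0.058, Rpl3 0.063, Zfp42 0.079 and Dnajb1 0.15. Genes called in neither fit that changed sign are not in this count. Calls of named genes were lost for 19 genes in DESeq2, 21 with all 12 libraries, 19 with library totals and 12 to 19 with 1 library left out. No other alternative turned the direction of a named gene that was called in the main fit or in that alternative. The fit with no filter was not compared for single genes.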
